A study of Saccharomyces cerevisiae with 9 samples.

Results

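The 10 genes described here encode the enzymes by which Saccharomyces cerevisiae builds triacylglycerol and steryl esters, the storage lipids of its lipid droplets. They are GPT2 (YKR067W), SCT1 (YBL011W), AYR1 (YIL124W), SLC1 (YDL052C), ALE1 (YOR175C), PAH1 (YMR165C), DGA1 (YOR245C), LRO1 (YNR008W), ARE1 (YCR048W) and ARE2 (YNR019W). Each was matched by gene symbol to a probe set of the array, and all 10 were found among the 5449 yeast genes tested. Each has 1 probe set, and all 10 had a mean above the background limit of 5.64 on the log2 scale, which is the 95th percentile of probe sets for genes of another species.

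Expression was measured on 9 arrays, 3 for each of 3 recombinant yeast strains. The strain named REF served as reference. The strain D12 carries a fungal gene, that of the Mucor rouxii D12-desaturase, which converts oleic to linoleic acid. The strain D126 carries it together with the D6-desaturase gene of that fungus, whose enzyme converts linoleic to gamma-linolenic acid. Every strain grew in chemostats limited for glucose, with a dilution rate of 0.1 per h, and was sampled at steady state after at least 5 residence times. The sources used here give no vector, promoter or parent strain, and the fungal transcripts were not analysed here. Nothing says whether replicates came from separate cultures. The p-values therefore cover the spread among these arrays alone, and that spread may be technical.

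Storage lipid synthesis starts with the acylation of glycerol-3-phosphate, or of dihydroxyacetone phosphate followed by a reduction, and a further acylation gives phosphatidic acid. Phosphatidic acid is either turned into phospholipids or dephosphorylated to diacylglycerol, which is then acylated to triacylglycerol. Sterols are acylated in a separate branch to steryl esters, and both products store fatty acids that are not placed in membranes.

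Levels are given on the log2 scale as the authors normalized them, with mean ± SD of 3 arrays, and differences as log2 changes beside their standard error (SE). A gene was called when its adjusted p was under 0.05 in limma, a linear model with a pooled spread, fitted to all 5449 genes and adjusted over them by the Benjamini-Hochberg method. RNA came from whole cultures, so fewer cells with a transcript and less transcript per cell cannot be told apart.

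The D126 arrays lay apart from the others on the leading principal component (54.7% of the variance), at scores of 7.07 to 10.18 against -5.86 to -2.40. D12 replicate 3 lay apart on the next component (18.4%) at -8.92. The difference between 3′ and 5′ actin probe sets, a sign of RNA quality, overlapped between strains (0.35 to 0.38 in REF, 0.36 to 0.38 in D12 and 0.36 to 0.38 in D126). Of 7 marker genes of MATa cells, 6 rose in D126 over REF. The mean level of these markers ran from 11.23 to 11.37 in REF, from 11.31 to 11.41 in D12 and from 11.71 to 11.74 in D126. Of 4 MATalpha markers 1 rose, and of 9 markers of sporulating cells 1 rose and 1 fell. These shifts move with D126, as do the results below, and their part in them was not tested.

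In D126 against REF, 4 synthesis genes passed the test. SLC1 and SCT1, which encode acyltransferases upstream of phosphatidic acid, rose in D126 over REF by 0.24 (SE 0.05) and 0.22 (SE 0.04) on the log2 scale, or 1.18-fold and 1.16-fold. AYR1, the reductase of the dihydroxyacetone phosphate route, fell by 0.31 (SE 0.03), and PAH1, the phosphatase that makes diacylglycerol, fell by 0.22 (SE 0.03). The 4 enzymes that attach the last acyl chain, DGA1, LRO1, ARE1 and ARE2, were not called, nor were GPT2 and ALE1, which act at the steps of SCT1 and SLC1. Thus 4 of the 10 genes were called, 2 higher and 2 lower, where 21.5% of all genes were called (8.59% higher and 12.9% lower). The F-test over the 3 strains also called 4 of the 10, against 20.1% of all genes. D126 and REF values did not overlap for these 4 genes, 2 higher and 2 lower, where this held for 47.9% of all genes (22.2% higher and 25.7% lower). The median change was -0.06 over the 10 genes and -0.0034 over all genes, and the median absolute change was 0.18 and 0.080.

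**Figure D1:**
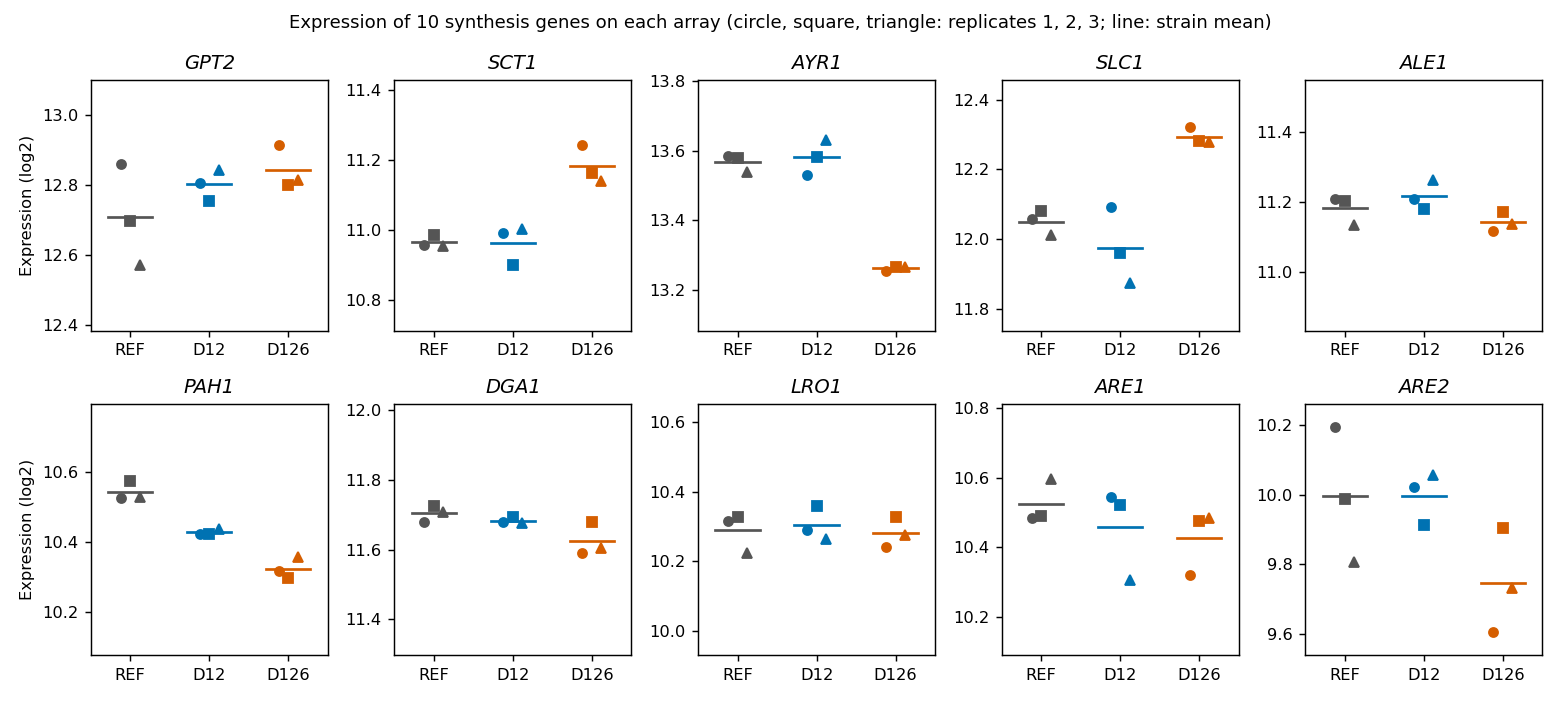
Expression of each gene on every array (y axis, log2 value, with the same span of 0.72 in each panel), by strain on the x axis. Circles, squares and triangles are replicates 1, 2 and 3, and lines are strain means. AYR1 and PAH1 lie lower and SCT1 and SLC1 higher on all 3 D126 arrays than on any REF array. The ARE2, GPT2, DGA1, LRO1, ARE1 and ALE1 values of these strains overlap, those of DGA1 at a tied value only.

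Glycerol-3-phosphate is acylated by Gpt2 and Sct1, which share this reaction and also use dihydroxyacetone phosphate. SCT1 read 10.96, 10.98 and 10.95 on the REF arrays, 10.99, 10.90 and 11.00 on the D12 arrays, and 11.24, 11.16 and 11.14 on the D126 arrays. All D126 values lay above all values of the other strains, which overlapped with each other. The rise over REF had a 95% confidence interval from 0.13 to 0.31 and an adjusted p of 0.00599 by limma. GPT2 read 12.86, 12.70 and 12.57 in REF, 12.81, 12.75 and 12.84 in D12, and 12.91, 12.80 and 12.82 in D126. Its strains overlapped, and the REF arrays alone spanned 0.29. The GPT2 difference between D126 and REF was 0.13 (95% interval -0.02 to 0.29, limma adjusted p = 0.193). Without REF replicate 1, the highest of the REF arrays, it was 0.21 with a limma adjusted p of 0.0417. Leaving out other single arrays gave GPT2 differences as small as 0.06 and adjusted p-values up to 0.523.

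AYR1 encodes the reductase that turns acyl-dihydroxyacetone phosphate into lysophosphatidic acid. Its values were 13.58, 13.58 and 13.54 in REF, 13.53, 13.58 and 13.63 in D12, and 13.26, 13.27 and 13.27 in D126. The D126 arrays agreed to within 0.011 and lay below every other array, while REF and D12 overlapped. AYR1 fell from 13.57 ± 0.02 in REF to 13.26 ± 0.01 in D126, a 1.24-fold decrease (95% interval -0.38 to -0.23, adjusted p = 0.000467 by limma). By absolute change it ranked 389 of the 5449 genes, the highest rank among the 10. Ranks of the other called genes were 594 for SLC1, 745 for PAH1 and 760 for SCT1.

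Lysophosphatidic acid receives its further acyl chain from Slc1, and Ale1 carries out the same step with a broad preference for lysophospholipids. SLC1 read 12.06, 12.08 and 12.01 in REF, 12.09, 11.96 and 11.87 in D12, and 12.32, 12.28 and 12.28 in D126. Every D126 array was higher than every REF and D12 array. The mean rose from 12.05 ± 0.03 in REF to 12.29 ± 0.02 in D126 (95% interval 0.13 to 0.36, limma adjusted p = 0.0112). ALE1 read 11.21, 11.20 and 11.13 in REF, 11.21, 11.18 and 11.26 in D12, and 11.12, 11.17 and 11.14 in D126. The D126 and REF arrays overlapped, with a difference of -0.04 (95% interval -0.12 to 0.04, limma adjusted p = 0.475). A rise of ALE1 as large as that of SLC1 thus lies outside its interval.

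PAH1 encodes the phosphatidate phosphatase, the enzyme that sets how much phosphatidic acid becomes diacylglycerol. It read 10.53, 10.58 and 10.53 in REF, 10.42, 10.42 and 10.44 in D12, and 10.32, 10.30 and 10.36 in D126. The strains lay in the order REF, D12, D126 without overlap, the single gene of the 10 for which the values of every pair of strains were apart. The fall from REF to D126 was 1.16-fold (95% interval -0.29 to -0.15, limma adjusted p = 0.00154). D12 lay 0.12 below REF (95% interval -0.19 to -0.05), which did not pass the test (unadjusted p = 0.00439, limma adjusted p = 0.77). D12 replicates 1 and 2 hold the same deposited PAH1 value, as 5321 of the 10928 probe sets do on at least a pair of arrays, so the D12 SD of 0.01 may be too small.

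Triacylglycerol is formed from diacylglycerol by Dga1, which takes the acyl chain from acyl-CoA, and by Lro1, which takes it from a phospholipid. DGA1 read 11.68, 11.73 and 11.71 in REF, 11.68, 11.69 and 11.68 in D12, and 11.59, 11.68 and 11.61 in D126. D126 and REF met only at a tied value of 11.68, the highest of D126 and the lowest of REF, which was counted as overlap. D126 differed from REF by -0.08 (95% interval -0.15 to -0.0041, limma adjusted p = 0.122). With array weights, which count arrays that fit poorly for less, DGA1 passed the test with a change of -0.08 (adjusted p = 0.0212). That setting called 2615 of all genes in D126 over REF, and in 17 of 18 other settings DGA1 was not called. LRO1 read 10.32, 10.33 and 10.22 in REF, 10.29, 10.36 and 10.26 in D12, and 10.24, 10.33 and 10.28 in D126. Its strains overlapped throughout, and D126 minus REF was -0.0083 (95% interval -0.10 to 0.09, limma adjusted p = 0.916), with a direction that changed between settings.

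Steryl esters are made by the acyltransferases Are1 and Are2, of which Are2 is known as the main enzyme in aerobic cells. ARE2 read 10.19, 9.99 and 9.81 in REF, 10.02, 9.91 and 10.06 in D12, and 9.61, 9.90 and 9.73 in D126. The D126 arrays lay below all D12 arrays but overlapped with REF, where replicate 3 was low. D126 differed from REF by -0.25 (SE 0.10, 95% interval -0.48 to -0.02, limma adjusted p = 0.11), a larger difference than those of the called genes SCT1, SLC1 and PAH1. The spread of ARE2 within strains was higher than for 94.1% of all genes. Without REF replicate 3 the ARE2 change was -0.34 with an adjusted p of 0.047, and with array weights it was -0.26 with an adjusted p of 0.0165. Array weights called 2615 genes in D126 over REF, against 1173 without weights. In 16 of 18 other settings ARE2 was not called, with -0.15 without REF replicate 1 (limma adjusted p = 0.305). ARE1 read 10.48, 10.49 and 10.60 in REF, 10.54, 10.52 and 10.31 in D12, and 10.32, 10.48 and 10.48 in D126. All 3 strains overlapped, and D126 minus REF was -0.10 (95% interval -0.26 to 0.06, limma adjusted p = 0.363).

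**Figure D2:**
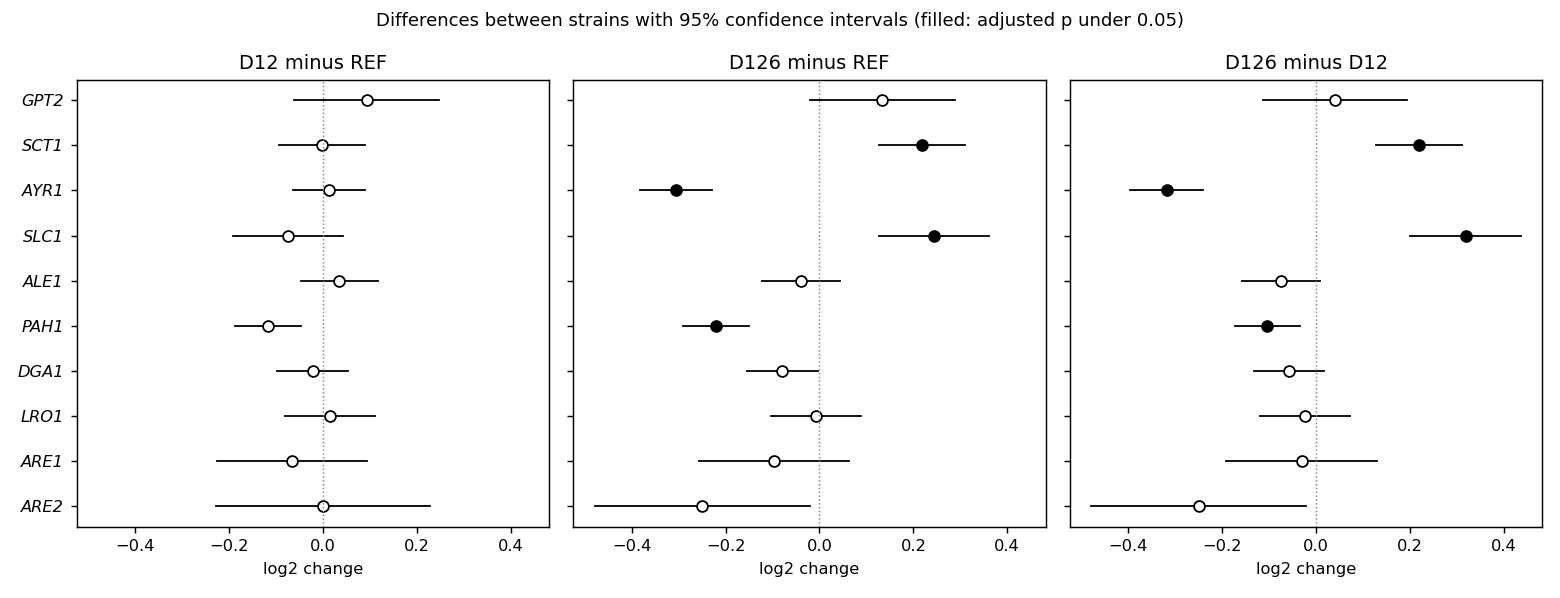
Differences between strains for the 10 genes (x axis, log2 change; bars, 95% confidence intervals of limma; filled points, adjusted p under 0.05). No point is filled in D12 minus REF, and SCT1, AYR1, SLC1 and PAH1 are filled in both D126 comparisons, between -0.32 and 0.32.

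In the strain with the D12-desaturase gene alone, none of the 10 genes passed the test against REF. Limma called 0 of 10 genes in D12 over REF, as it called 0 of all 5449 (0%). An unadjusted p under 0.05 was reached by 326 genes, with PAH1 as the single one of the 10. Differences ran from -0.12 for PAH1 to 0.09 for GPT2, with a median of -0.0007 against 0.01 over all genes. PAH1 was also the single gene of the 10 whose D12 and REF values did not overlap, where this held for 10.2% of all genes (6.20% higher and 3.96% lower). The 95% intervals of these differences reached at most 0.25 from 0 in either direction. Without D12 replicate 3, limma again called 0 of the 10.

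Strain D126, which carries the D6-desaturase gene as well, was also compared with D12. Here 4 of the 10 genes were called, again SCT1, AYR1, SLC1 and PAH1. Over all genes, 22.0% were called (7.32% higher and 14.7% lower). This comparison shares the D126 arrays with the one above, so its values are not a second line of evidence. SLC1 stood 0.32 (SE 0.05) higher in D126 than in D12 (limma adjusted p = 0.0035), and AYR1 fell by 0.32 (SE 0.03, limma adjusted p = 0.000389). SCT1 rose by 0.22 (SE 0.04, limma adjusted p = 0.00592). PAH1 differed by -0.10 (SE 0.03, limma adjusted p = 0.0418), and this call was lost in 16 of 17 other settings, including the loss of any single array of the 9, with adjusted p-values up to 0.166. The values of D126 and D12 did not overlap for 6 of the 10 genes, namely those 4 with ALE1 and ARE2, both lower, against 38.4% of all genes (14.7% higher and 23.8% lower). Without D12 replicate 3 SLC1 stood 0.27 higher (adjusted p = 0.00557) and PAH1 differed by -0.10 (adjusted p = 0.0664), and 3 genes were called. Of all genes, 399 were higher and 801 lower in D126 than in D12, and 584 and 633 with quantile normalization, which left SCT1, AYR1 and SLC1 called.

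Enzymes with like reactions were compared within each array, as 4 pairs in 3 comparisons. With 3 arrays against 3, the smallest p of the exact permutation test is 0.1, so none of these could pass. SLC1 changed relative to ALE1 by 0.28 between REF and D126 and by 0.39 between D12 and D126 (both two-sided exact p = 0.1, 0.3 after adjustment over the 12 comparisons). The values of the strains did not overlap in either, which with 3 arrays against 3 is what an exact p of 0.1 means. Both differences use the SLC1 values tested above and are no separate evidence. GPT2 minus SCT1 did not overlap between D126 and D12, with a difference of -0.18 (exact p = 0.1), while against REF it was -0.08 (exact p = 0.5). DGA1 minus LRO1 differed by -0.07 between D126 and REF without overlap (exact p = 0.1). ARE1 minus ARE2 overlapped in all 3 comparisons, with differences of -0.07 for D12 minus REF (exact p = 0.8), 0.15 for D126 minus REF (exact p = 0.5) and 0.22 for D126 minus D12 (exact p = 0.2).

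**Figure D3:**
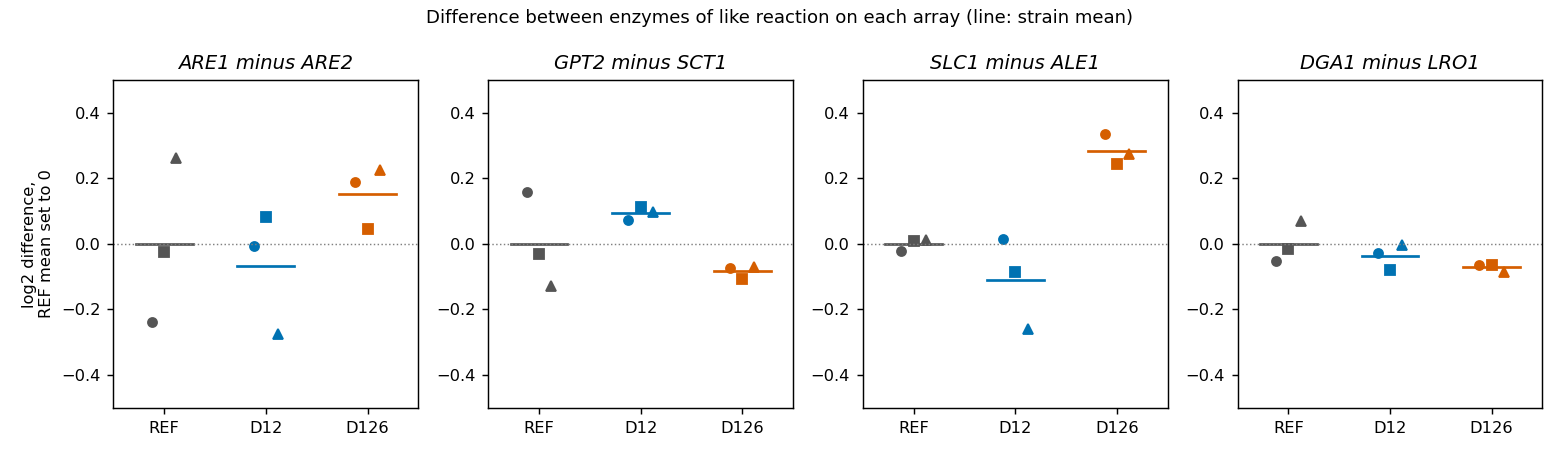
Difference between the log2 values of paired enzymes on each array (y axis), with the REF mean of each pair set to 0, by strain on the x axis; symbols are replicates 1, 2 and 3 and lines are strain means. SLC1 minus ALE1 lies higher on all 3 D126 arrays than on any other array, by 0.28 in the mean over REF.

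The genes around these steps were described from lists of the pathway. Counts per list are for D126 over REF unless stated, where 8.59% of all genes rose and 12.9% fell. At the phosphatidate and diacylglycerol node, 1 of 7 genes fell in D126 and 0 rose. The one that fell, NEM1, encodes the catalytic subunit of the membrane phosphatase that activates Pah1. NEM1 fell from 10.64 ± 0.10 in REF to 10.35 ± 0.09 in D126 (log2 change -0.29, limma adjusted p = 0.0121). The call of NEM1 was also made in D126 over D12 (log2 change -0.22, limma adjusted p = 0.0388) but was lost there in 9 of 17 other settings, among them the loss of REF replicate 2 (0.0608), D12 replicate 1 (0.0774), D12 replicate 3 (0.0906), D126 replicate 1 (0.12) or D126 replicate 3 (0.106). The other 6, with the regulatory subunit gene SPO7, the diacylglycerol kinase gene DGK1 and the CDP-diacylglycerol synthase gene CDS1, were not called. Their differences all lay above 0, against 1 of the 7 below. LPP1, named here after its values were seen, was 0.15 higher in D126 than in REF (limma adjusted p = 0.052). It was 0.11 higher than in D12 (limma adjusted p = 0.116), and its values did not overlap in either comparison. Of 4 other acyltransferases related to the lysophosphatidic acid step, 0 were called, and ICT1 and LOA1 differed by 0.10 and 0.06 (limma adjusted p = 0.354 and 0.396).

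In the supply of the glycerol backbone, GPD1 and GPD2 encode the glycerol-3-phosphate dehydrogenases, and GPP1 and GPP2 the phosphatases that draw glycerol-3-phosphate off to glycerol. In this list 1 of 6 genes rose and 3 fell, where 8.59% of all genes rose and 12.9% fell. GPD2 rose by 0.76 (limma adjusted p = 0.0181), a call lost without REF replicate 1 (0.0623), REF replicate 2 (0.0699) or D126 replicate 1 (0.0548). GPP1 fell by 0.26 (adjusted p = 0.0139 by limma), a call lost without REF replicate 3 (0.051). GPP2 fell by 0.25 (limma adjusted p = 0.0291), a call lost without REF replicate 2 (0.0896), REF replicate 3 (0.0936), D126 replicate 1 (0.0575) or D126 replicate 3 (0.0554). GPD1, named here after its values were seen, fell by 0.24 (limma adjusted p = 0.00371). In D126 over D12, 3 of the 6 genes fell and 0 rose, where 14.7% of all genes fell and 7.32% rose. There GPD2 differed by 0.40 and was not called (limma adjusted p = 0.148). In D12 over REF, GPD2 differed by 0.36 and was not called either (limma adjusted p = 0.832).

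In the breakdown of the stored lipids, 2 of 6 lipase and steryl ester hydrolase genes fell and 0 rose. Over all genes, 12.9% fell and 8.59% rose. YEH1, a steryl ester hydrolase, fell by 0.30 (limma adjusted p = 0.0189), but not without REF replicate 1 (0.0613) or REF replicate 3 (0.0609). TGL5, a triacylglycerol lipase, fell by 0.13 (limma adjusted p = 0.0384). Its call was lost without any single REF or D126 array (0.0799 to 0.107) and with a replicate block over all arrays (0.0663), while a block over the REF and D126 arrays alone gave 0.0261. In D126 over D12, 0 of the 6 genes were called (limma adjusted p = 0.123 for YEH1 and 0.107 for TGL5), where 22.0% of all genes were called. Of 7 genes of droplet assembly and coat, 0 were called in D126 over REF. SCS3, a gene of the family that helps droplets form, and PDR16, a phosphatidylinositol transfer protein, differed by 0.23 and 0.17 (limma adjusted p = 0.0523 and 0.0729).

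Both SCS3 and PDR16 rose in D126 over D12, by 0.28 and 0.21 (limma adjusted p = 0.0257 and 0.0374). Of the 7 droplet genes, 2 rose and 0 fell there, where 7.32% of all genes rose and 14.7% fell. The SCS3 call was lost without D12 replicate 2 (0.0654), D126 replicate 2 (0.0745) or D126 replicate 3 (0.0825). That of PDR16 was lost without REF replicate 2 (0.0537) and without any single D12 or D126 array (0.0609 to 0.108). Among 5 regulators, INO2, an activator of phospholipid genes, fell by 0.34 in D126 against REF (limma adjusted p = 0.00338), and 0 rose.

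Of 9 genes of acyl-CoA supply, 1 rose and 2 fell in D126 over REF, where 8.59% of all genes rose and 12.9% fell. The acyl-CoA synthetase gene FAA3 rose by 0.37 (limma adjusted p = 0.00129). ACC1, the acetyl-CoA carboxylase gene, fell by 0.13 (limma adjusted p = 0.0151), a call lost without REF replicate 1 (0.0614), D126 replicate 2 (0.0501) or D126 replicate 3 (0.0614). The fatty acid synthase gene FAS1 also fell by 0.13 (limma adjusted p = 0.017), a call lost without any single REF array (0.0508 to 0.0637) or D126 replicate 3 (0.0529). With all non-control probe sets in the fit, the calls of GPD2, GPP1, GPP2, YEH1, TGL5, ACC1 and FAS1 in D126 over REF were lost (adjusted p from 0.051 to 0.139). In D12 over REF, limma called 0 genes in each of these 7 lists. Medians of the lists in D126 minus REF ran from -0.09, for glycerol backbone supply and the regulators, to 0.03 for the phosphatidate node.

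**Figure D4:**
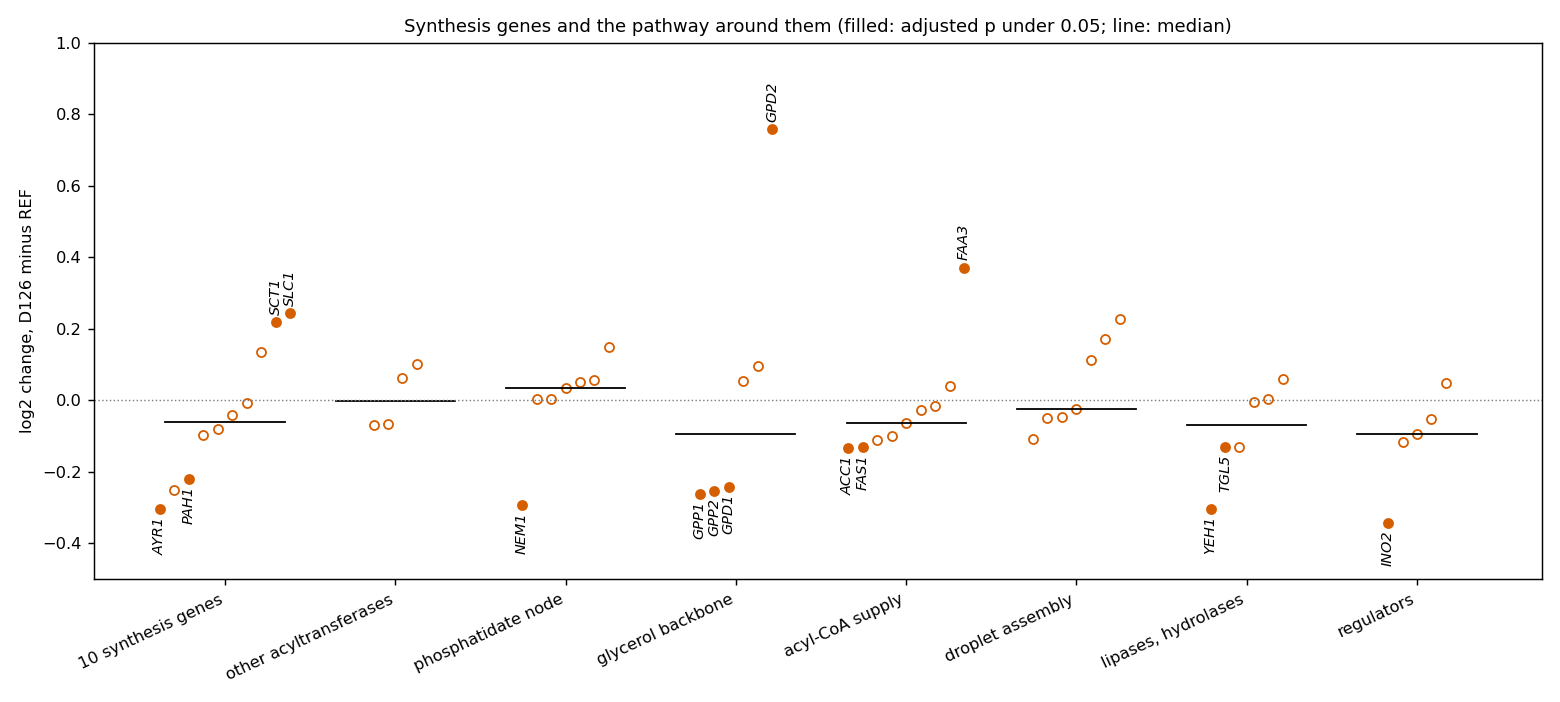
Log2 change in D126 minus REF (y axis) of the 10 synthesis genes and of 7 lists of genes around them (x axis); each point is a gene, filled and named where its adjusted p was under 0.05, and lines are medians. Filled points lie on both sides of 0 among the synthesis genes, glycerol backbone supply and acyl-CoA supply, and GPD2 at 0.76 lies highest.

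The genes whose values over the 9 arrays were most like those of each called gene were listed as a description. The 9 points share the strain difference, since the D126 arrays lie apart. Genes picked for likeness to a called gene thus share its strain difference by selection. All genes named here as most alike were called in D126 over REF, so their changes and p-values are no separate evidence. AYR1 was most like GSP2, a Ran GTPase gene, YJR096W and SNO4, with r of 0.996, 0.995 and 0.995, and 411 genes had an r of at least 0.9 with it. SNO4 is read by a probe set that may bind related genes. SLC1 was most like MCD4 of GPI anchor synthesis, the nicotinic acid transporter gene TNA1 and the phosphatidylinositol synthase gene PIS1 (r of 0.991, 0.985 and 0.983), and 134 genes had an r of at least 0.9 with it. PIS1 rose in D126 over REF by 0.24 (limma adjusted p = 0.0189). SCT1 was most like LSM12, the guanylate kinase gene GUK1 and the isocitrate dehydrogenase gene IDH1 (r of 0.984, 0.983 and 0.979), and for 187 genes r was at least 0.9. PAH1 was most like VMA2, a subunit of the vacuolar ATPase, the splicing factor gene PRP11 and the squalene synthase gene ERG9 (r of 0.976, 0.960 and 0.956), and 28 genes had an r of at least 0.9 with it. ERG9 fell in D126 over REF by 0.18 (limma adjusted p = 0.00228).

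Genes next to the 10 on the chromosome were read as a description. Of 18 measured neighbours in the gene order of the R64 annotation, 6 were called in D126 over REF, where 21.5% of all genes were called. Of these 6, 3 lay beside a called synthesis gene and the others beside synthesis genes that were not called. SIM1, beside AYR1, and MME1, beside PAH1, rose by 0.24 and 0.23 (limma adjusted p = 0.00608 and 0.0103), where AYR1 and PAH1 fell. FMT1, beside SCT1, rose with it, by 0.27 (limma adjusted p = 0.0291). LRO1, which was not called, lies between ATG3, which fell by 0.34 (limma adjusted p = 0.000415), and NRM1, which rose by 0.16 (limma adjusted p = 0.0203). MED4, beside ALE1, which was not called either, rose by 0.20 (limma adjusted p = 0.0411).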

How the data were processed

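Total RNA of chemostat cultures was hybridised to 9 Affymetrix yeast arrays. The deposited log2 expression values, 1 per probe set and array, were made by the authors with RMA; per the submitters' processing notes, affy was the package, and no version is stated. RMA gives all arrays a like distribution, which hides any change in total RNA content. Of 10928 probe sets, 7244 carry 1 gene in the platform annotation, 5498 of them matched the R64 table of S. cerevisiae by gene identifier, and the brightest per gene gave 5449 genes. That table was used for names and gene order only. The other 1746 named probe sets set the background limit.

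Strain differences came from a limma fit (version 3.58.1, under R 4.3.3) with strain as the term over 9 arrays, and the fit was tested on simulated data. The number of arrays limits the precision (median SE 0.048). Same-numbered REF and D126 arrays deviated together (r of 0.13 to 0.22 over 3 pairs), as read from the data and not the labels. A replicate block was therefore fitted. Same-numbered arrays of D12 did not deviate together with the others (-0.34 to -0.02). Arrays with unlike numbers ran from -0.23 to 0.05 for REF with D126, and up to 0.30 for REF with D12. Whether the numbers mark paired arrays is thus not shown. Named genes are the 10 genes, and per list up to 3 called genes with the largest change or the 2 with the smallest p; the 3 genes most like each called gene and the neighbours are added. The genes and lists were chosen with earlier results of these data known. PET10, OSW5, RHR2 and HOR2 appear under the names PLN1, LDO16, GPP1 and GPP2. Alternatives were other normalization, centring, weights, prior, probe sets, filter, arrays, a block and leaving out each array.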

Additional observations from a re-analysis of the deposited data

How the results depend on the processing

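The calls of SCT1, AYR1, SLC1 and PAH1 in D126 over REF were kept in all 18 other settings, and those of SCT1, AYR1 and SLC1 in D126 over D12 in all 17. Of 520 recomputed values of the 10 genes, 471 kept direction and side of the threshold, 16 lost the call (PAH1 in D126 over D12), 4 gained one (GPT2, DGA1 and ARE2) and 29 changed sign, all for differences of at most 0.07. The sign changes with quantile normalization were LRO1 (-0.0056 in D12 over REF, 0.0023 in D126 over REF, 0.0078 in D126 over D12), ARE2 (-0.028 in D12 over REF) and ARE1 (0.0022 in D126 over D12). Centring on medians gave AYR1 -0.0034, LRO1 -0.0018 and ARE2 -0.017 in D12 over REF, and array weights gave ALE1 -0.00061, ARE1 0.0021 and ARE2 -0.080. Leaving out single arrays in D12 over REF gave ranges of -0.021 to 0.031 for SCT1, -0.012 to 0.038 for AYR1, -0.017 to 0.036 for LRO1, -0.11 to 0.0092 for ARE1 and -0.094 to 0.099 for ARE2. It gave LRO1 -0.041 to 0.012 in D126 over REF, and LRO1 -0.047 to 0.0038 and ARE1 -0.11 to 0.022 in D126 over D12. ARE1 minus ARE2 in D12 over REF ran from -0.18 to 0.064. The cause of these changes was not tested.

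Counts over all genes moved more. Array weights called 1 gene in D12 over REF, 2615 in D126 over REF and 2057 in D126 over D12, and all non-control probe sets gave 630 and 655 for the last comparisons. With the D12 and D126 arrays alone, 780 were called. Leaving out single arrays gave 0 to 1, 645 to 1539 and 683 to 1332 genes in these comparisons, with the lowest counts without REF replicate 2 and without D126 replicate 3. The replicate block over all arrays gave 922 genes in D126 over REF and 964 in D126 over D12, and over REF and D126 alone, an alternative chosen after seeing the data, 1603. It ended the calls of TGL5 in D126 over REF and, where the numbers do not pair the arrays, of PAH1 (adjusted p = 0.0864), NEM1 (0.0802), FAS1 (0.0534) and SCS3 (0.0516) in D126 over D12. It changed no other call among the synthesis genes and the called genes of the lists. No other probe set of the 10 genes existed to be tried.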
